A study of Mus musculus with 3 samples.

Results

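The genes described here are 8 members of the intermediate filament family, Gfap, Vim, Des, Synm, Nes, Krt8, Krt18 and Lmna, 8 of the 21750 features of the count matrix. They were chosen by symbol, and all 8 symbols were found once among the features. The list was drawn up with earlier results of these data known. Each was followed across cell types in 1 single-cell RNA library. The cells came from hippocampi of 5 pooled Aldh1l1CreERT2;Rosa26-LSL-tdTomato mice. In these mice a tamoxifen-activated Cre, driven by the astrocyte gene Aldh1l1, switches on the red reporter tdTomato. The animals had been given AAV-TIGRi-Hopx, a Cre-dependent viral vector that represses the homeobox gene Hopx and carries EGFP, and were taken 3 weeks after tamoxifen. Cells positive for tdTomato and EGFP were enriched by sorting, with a target of 6000 cells. All cells share this genotype and vector, and there is no library without the vector. No age of the mice is given in the labels. The 2 chromatin samples of the series, an anti-Flag and an IgG sample from primary astrocytes, were not analysed here.

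Intermediate filaments are rope-like polymers that give cells mechanical strength, and each cell type builds its own set. Glial fibrillary acidic protein, vimentin and desmin are type III proteins that can each form a filament alone, while synemin and nestin need such a partner. Keratins always pair 1 type I chain with 1 type II chain, as Krt18 does with Krt8 in simple epithelia, and the A-type lamins made from Lmna line the inside of the nuclear envelope. In the hippocampus Gfap marks many astrocytes and also the radial stem cells of the dentate gyrus, and Nes is widely used as a marker of neural progenitors, but endothelial cells and ependymal cells can express Nes too.

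Cell types were gated on 8 fixed markers each, none of them a filament gene of this list. A cell joined a class if at least 3 markers of the class had a UMI, a unique molecule count, and if no other class came within fewer than 2 markers of it. Of 6485 cells kept, 5798 (89.4%) were gated and 687 were left ungated. The classes are called "like" cells because they rest on these markers alone. They were microglia-like (2437 cells, median 6503 UMIs), endothelial-like (1580, median 3590.5), ependymal-like (610, median 5946.5), choroid plexus-like (598, median 10883.5), border macrophage-like (238), astrocyte-like (140, median 2927.5), oligodendrocyte-like (89), neuron-like (28), T or NK cell-like (26), monocyte-like (20), fibroblast-like (13), mural-like (8) and B cell-like cells (8). The monocyte-like class was led by Saa3, Clec4e and Nos2, and the mural-like class by the smooth muscle genes Myh11 and Tagln. The endothelial-like class was led by the haemoglobin genes Hbb-bs, Hba-a1 and Hbb-bt, ahead of Ptprb and Cldn5. Haemoglobin UMIs count in the total of that class, and their part in its levels was not tested. Near the gate, 192 gated cells had exactly 3 markers and 453 had a lead of exactly 2, while 251 ungated cells had a lead of 1. A level is given as CPM, the UMIs of a gene per 1000000 UMIs of the class, with its exact 95% Poisson interval in parentheses. With 1 library there is no replicate, so no difference was tested. All intervals are for counting error alone, since single cells do not replicate a condition. Cells were sorted for the reporters, so class sizes do not describe the tissue.

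**Figure D1:**
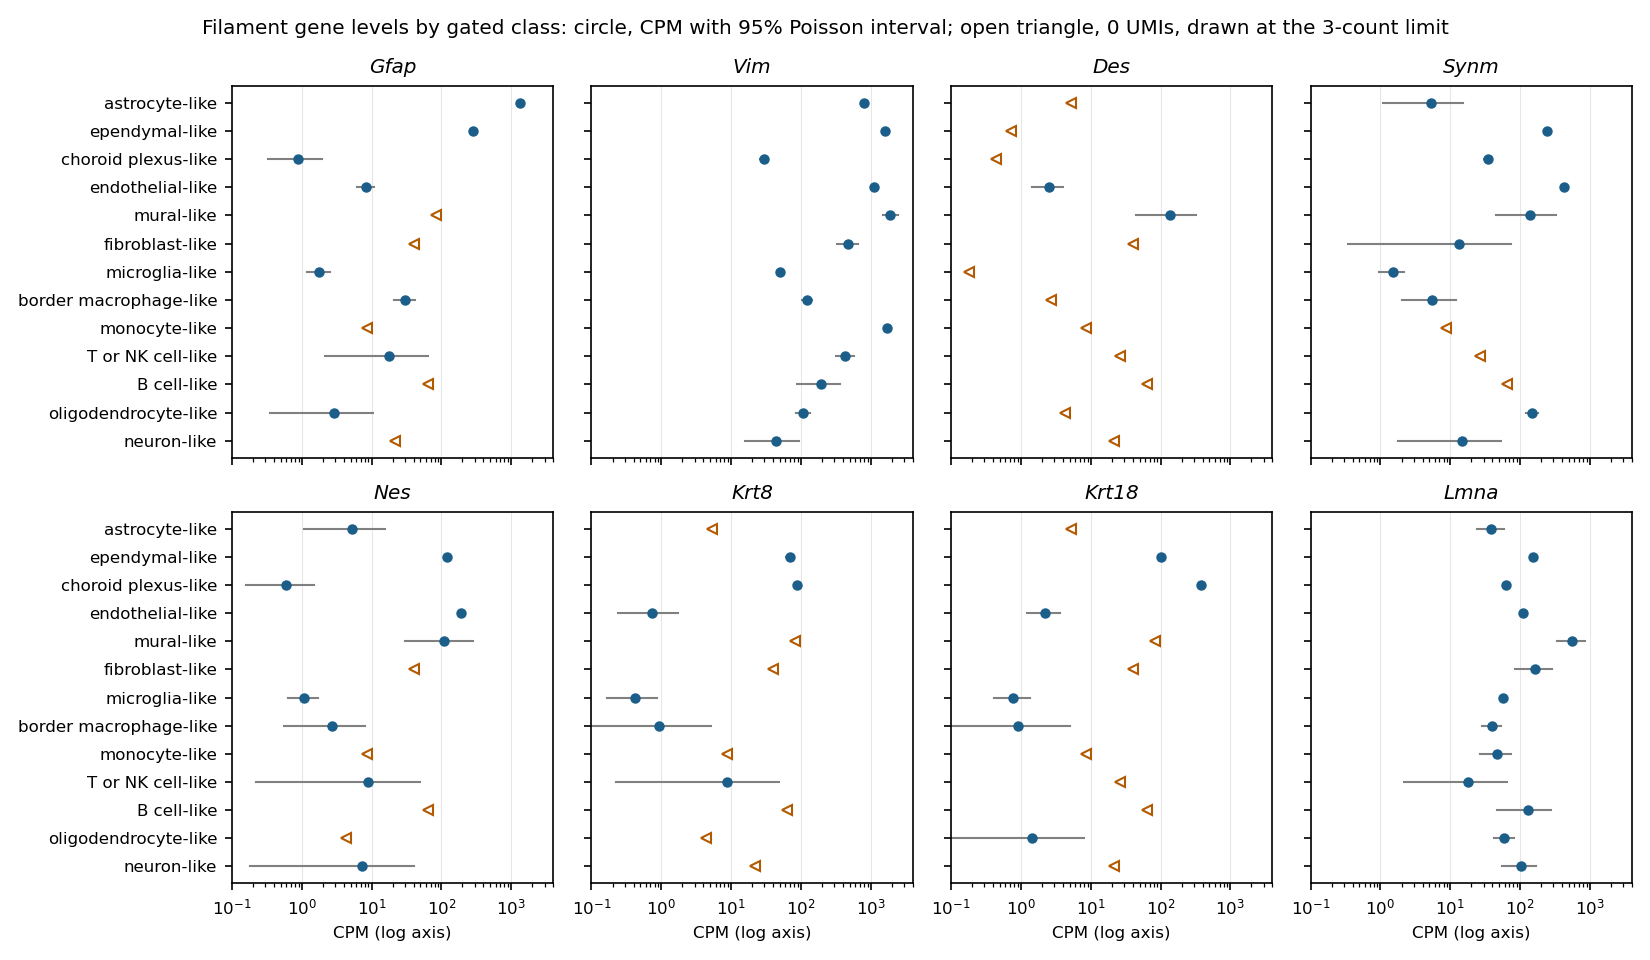
Level of each of the 8 genes (panels, log CPM axis) in the 13 gated classes (rows), with 95% Poisson intervals as lines and the 3-count limit as an open triangle where a class had 0 UMIs. Gfap is highest in astrocyte-like cells at 1316 CPM, Krt18 in choroid plexus-like cells at 385 CPM, and Des in mural-like cells at 138 CPM.

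Gfap encodes the filament protein by which astrocytes are usually stained. Its level was highest in astrocyte-like cells, 1316 CPM (1224 to 1414), from 749 UMIs. Next were ependymal-like cells, whose cilia move fluid through the ventricles, with 283 CPM (267 to 299.8). The astrocyte-like level of Gfap was 4.65 times the ependymal-like level, with a 95% interval of the ratio of 4.24 to 5.10. Ependymal-like cells, which were more numerous and deeper, held 51.1% of all Gfap UMIs and astrocyte-like cells 33.1%. In the other classes Gfap was low. Endothelial-like cells had 8.21 CPM (6.20 to 10.7), microglia-like cells 1.79 CPM (1.21 to 2.56) and choroid plexus-like cells 0.88 CPM (0.32 to 1.92). Border macrophage-like cells had 30.1 CPM, but 30 of their 33 Gfap UMIs lay in 1 cell. Mural-like, fibroblast-like, monocyte-like, B cell-like and neuron-like cells had 0 Gfap UMIs. For the 28 neuron-like cells, the limit set by 3 counts is 21.8 CPM.

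Of the 140 astrocyte-like cells, 89 had a Gfap UMI, or 63.6% (55.0 to 71.5, Clopper-Pearson), with a median of 2 and a maximum of 32 UMIs per cell. In microglia-like cells, which should lack the gene, the share was 1.23% at median depths of 6503 against 2927.5 UMIs. After each cell was thinned at random to 2000 UMIs, Gfap was found in 64.0% of astrocyte-like, 32.3% of ependymal-like and 0.17% of microglia-like cells. In 51 of the 140 astrocyte-like cells 0 Gfap UMIs were found, which at this depth does not show that they lack the RNA. The 8 astrocyte markers of the gate summed to 18275 CPM in the class and to 1682 CPM in ependymal-like cells.

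Vim encodes vimentin, a type III protein made by many mesenchymal, endothelial and glial cells. It had the most UMIs of the 8 genes, 18924, and was spread over more classes than Gfap. Mural-like cells had 1910 CPM (1486 to 2418), monocyte-like cells 1699 CPM (1564 to 1842) and ependymal-like cells 1616 CPM (1578 to 1656). The 95% intervals of the ratios between these neighbours in the order hold 1. Endothelial-like cells came next with 1112 CPM (1087 to 1138), lower than ependymal-like cells by a ratio whose interval runs from 1.41 to 1.502. Astrocyte-like cells had 787 CPM (716 to 864), fibroblast-like cells 471 CPM and T or NK cell-like cells 433 CPM. The lower end of the order held B cell-like cells at 192 CPM, border macrophage-like cells at 123 CPM, oligodendrocyte-like cells at 109 CPM, microglia-like cells at 49.8 CPM, neuron-like cells at 43.7 CPM and choroid plexus-like cells at 29.4 CPM. Of the 75 Vim UMIs in oligodendrocyte-like cells, 38 lay in 1 cell.

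The myeloid classes stood far apart in Vim. All 20 monocyte-like cells had a Vim UMI, with a median of 25, and their level was 34.1 times that of microglia-like cells (30.6 to 37.9). These values are of the 20 gated cells alone. With classes from clusters in place of gates, 232 cells were named monocyte. The 22 ungated cells that shared microglia and monocyte markers had Vim at 905 CPM (793 to 1028), with a Vim UMI in 16 of them. Border macrophage-like cells were at 2.47 times the microglia-like level (2.04 to 2.97), although 39 of their 135 Vim UMIs lay in 1 cell. Monocyte-like cells were also deeper, with a median of 17892.5 UMIs, and after thinning 75.0% of them kept a Vim UMI against 5.57% of microglia-like cells. The 2 ventricular epithelia differed as well. Vim was 54.9 times higher in ependymal-like than in choroid plexus-like cells (47.7 to 63.5).

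Gfap and Vim are the pair that astrocytes combine in 1 filament network, so their promoter sequences are shown for comparison. Each is the 250 bases before the RefSeq gene start, read 5′ to 3′ on the gene's strand, from GRCm38.p6, an earlier build than that of the counts. Gfap lies on the minus strand at chr11:102897201-102897450 and Vim on the plus strand at chr2:13574061-13574310. Capitals mark matches, on either strand, to the core promoter box TATAAA, to CCAAT, which nuclear factor Y binds, to the Sp1 motif GGGCGG, or to the AP-1 motif TGANTCA.
Gfap: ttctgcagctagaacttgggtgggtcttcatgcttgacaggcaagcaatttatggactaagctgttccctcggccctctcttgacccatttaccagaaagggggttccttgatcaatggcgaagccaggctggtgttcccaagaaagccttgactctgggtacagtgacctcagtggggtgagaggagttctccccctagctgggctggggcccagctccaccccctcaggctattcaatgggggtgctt
Vim: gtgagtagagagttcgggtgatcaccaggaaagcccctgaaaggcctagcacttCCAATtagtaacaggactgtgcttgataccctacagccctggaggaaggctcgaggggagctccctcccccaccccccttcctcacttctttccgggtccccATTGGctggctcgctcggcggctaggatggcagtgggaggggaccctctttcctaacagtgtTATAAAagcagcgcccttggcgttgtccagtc
The Vim window holds a TATAAA match 32 to 27 bases before the start and 2 CCAAT matches, 196 to 192 and 94 to 90 bases before it. The Gfap window holds no match to any of the 4 motifs. Among 32851 mouse promoter windows of the same length, 12.4% hold TATAAA and 33.8% hold CCAAT. A match is a description of the letters, not evidence of a bound factor.

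Within single astrocyte-like cells Gfap and Vim UMIs tended to occur together. Of 100 astrocyte-like cells thinned to 2000 UMIs, 43 had both, or 43.0% (33.1 to 53.3), where the product of the separate shares is 32.0%. Vim was found in 67.2% of the Gfap-positive and in 19.4% of the Gfap-negative cells. Ependymal-like cells showed little of this, with both genes in 30.2% (26.5 to 34.2) and a product of 29.0%.

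Vim also differed between astrocyte-like cells with and without interferon-induced RNA. Cells with at least 2 of 6 interferon-induced genes (Ifit3, Ifit2, Isg15, Rsad2, Usp18 and Oasl2) numbered 32, and 108 had fewer. Their Vim level was 1630 CPM (1461 to 1814) against 302 CPM (248 to 364), a ratio of 5.40 (4.34 to 6.77). A Vim UMI was found in 24 of the 32 and in 42 of the 108 cells. Gfap was at 1746 CPM against 1069 CPM, a ratio of 1.63 (1.41 to 1.89). Lmna was at 81.8 CPM against 13.8 CPM, but these levels rest on 17 and 5 UMIs, with a ratio of 5.91 (2.09 to 20.5). After thinning the Lmna ratio was 2.45, from 2 UMIs in each group.

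The interferon-positive astrocyte-like cells were the deeper cells, with a median of 6771.5 UMIs against 2744. Among cells of at least 4000 UMIs, 23 and 34 of them, the Vim ratio was 4.62 and the Gfap ratio 1.17. After thinning the Vim ratio was 5.15 and the Gfap ratio 1.92. The Vim ratio was 5.00 without the cell with the most Vim UMIs in each group. Markers of other cell types moved with the split: the 8 monocyte markers, of which 2 had a UMI in each group, summed to 197 CPM in the interferon-positive and 5.54 CPM in the other cells. The 7 microglia markers found among the features summed to 438 and 338 CPM, with 5 of them seen in each group, and the 8 endothelial markers to 28.9 and 24.9 CPM. Their part in the Vim difference was not tested.

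**Figure D2:**
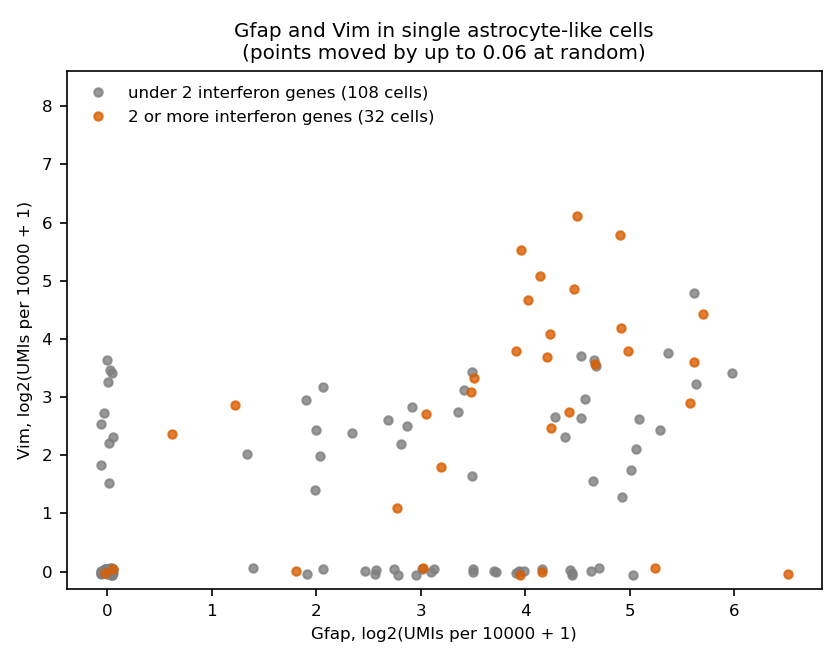
Gfap (x axis) against Vim (y axis) in each of the 140 astrocyte-like cells, both as log2(UMIs per 10000 + 1). Cells with 2 or more interferon genes (orange, 32 cells) reach higher Vim values than the other 108 cells (grey), and many cells lie on an axis with 0 UMIs of one gene.

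Des encodes desmin, the type III filament protein of muscle, including vascular smooth muscle and pericytes. It was close to absent from the library, with 29 UMIs in all. The 8 mural-like cells held 5 of them, in 4 cells, which gives 138 CPM (44.9 to 323). Endothelial-like cells held 17, or 2.49 CPM (1.45 to 3.99), and ungated cells the other 7. The mural-like level of Des was 55.5 times the endothelial-like level, with a wide interval of 16.0 to 157. All other classes had 0 Des UMIs. For the 2437 microglia-like cells this allows at most 0.18 CPM, and for the 140 astrocyte-like cells 5.27 CPM.

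Synm encodes synemin, a large protein that joins vimentin or desmin filaments and links them to membrane anchors. It was an endothelial and ependymal gene here. Endothelial-like cells had 421 CPM (405 to 437) and held 64.6% of Synm UMIs, and ependymal-like cells had 239 CPM (224 to 255). The third class was oligodendrocyte-like cells with 149 CPM (122 to 181), in 53 of 89 cells. Mural-like cells, with 5 UMIs and 138 CPM, could not be told from oligodendrocyte-like cells. Choroid plexus-like cells had 34.3 CPM (30.04 to 39.0).

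Astrocyte-like cells were among the classes with the least Synm. They held 3 UMIs, 5.27 CPM (1.09 to 15.4), and the endothelial-like level was 79.8 times higher (27.3 to 387). With classes from clusters in place of gates the log2 ratio of astrocyte-like over endothelial-like cells went from -6.32 to -4.63, with 10 Synm UMIs in 147 astrocyte cells. The ependymal-like level was 45.3 times the astrocyte-like level (15.5 to 220.3). Microglia-like cells had 1.49 CPM (0.97 to 2.21), a level whose ratio to astrocyte-like cells has an interval that holds 1. At 2000 UMIs per cell, Synm was found in 52.4% of endothelial-like, 36.4% of ependymal-like, 25.9% of oligodendrocyte-like, 1.00% of astrocyte-like and 0.21% of microglia-like cells.

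Nes encodes nestin, a filament protein of dividing neural precursors, of developing muscle and of vessels. Of 1034 cells with a Nes UMI, 675 (65.3%) were endothelial-like and 260 (25.1%) ependymal-like. The endothelial-like level was 189 CPM (179 to 199.5) and the ependymal-like level 119 CPM (109 to 130.1), a ratio of 1.59 (1.43 to 1.77). Mural-like cells had 111 CPM from 4 UMIs. The share of cells with a Nes UMI was the same within counting error in both main classes, 42.7% (40.3 to 45.2) of endothelial-like and 42.6% (38.7 to 46.7) of ependymal-like cells, but the latter were deeper. At 2000 UMIs per cell the shares were 29.97% and 18.5%.

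Outside the vessels and the ventricle wall Nes was rare. Astrocyte-like cells held 3 Nes UMIs in 2 cells, 5.27 CPM (1.09 to 15.4), and endothelial-like cells exceeded them 35.8 times (12.2 to 174). In neuron-like cells there was 1 Nes UMI. Microglia-like cells had 1.08 CPM (0.64 to 1.70), with a Nes UMI in 0.74% of cells. Oligodendrocyte-like cells had 0 Nes UMIs, which limits their level to 4.35 CPM.

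Nes was then set against 7 other genes of neural progenitors, Eomes, Egfr, Neurog2, Dll1, Dll3, Tfap2c and Sox11. The 436 cells with at least 1 of these 7 genes had Nes at 44.9 CPM (37.6 to 53.2). The 30 cells with at least 2 held 11 Nes UMIs, 41.2 CPM (20.5 to 73.6), and 12 of them were ependymal-like, 5 neuron-like and 2 astrocyte-like. Both levels are below those of endothelial-like and ependymal-like cells. They are averages over mixed cells, since 294 of the 436 cells had Egfr and the neural progenitor gate held 0 cells. The 8 markers of that gate summed to 837 CPM in neuron-like, 444 CPM in fibroblast-like, 255 CPM in astrocyte-like and 198 CPM in border macrophage-like cells. The markers with a UMI numbered 6, 1, 5 and 4 in the same order, so the fibroblast-like sum is of 1 gene. The Nes level of neural progenitors themselves is therefore not given by these values. Leaving endothelial-like and ependymal-like cells aside, 18 cells had at least 2 of the genes, and they held 3 Nes UMIs in 2 cells.

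The cells with single progenitor genes fell into different classes. Sox11, a transcription factor of immature neurons, was found in 64 cells with 41 Nes UMIs, and 40 of the 64 were ependymal-like. Dll1, a Notch ligand, was found in 94 cells with 57 Nes UMIs, of which 33 were endothelial-like and 31 ependymal-like. Eomes, which marks intermediate progenitors, was found in 11 cells with 2 Nes UMIs, of which 3 were neuron-like and 2 ependymal-like. Egfr was found in 294 cells with 43 Nes UMIs, and 68 of the 294 were astrocyte-like, 45 ependymal-like and 8 endothelial-like. Of the 1034 Nes-positive cells, 75 had any of the 7 genes, and 44 of these were ependymal-like and 20 endothelial-like. In these cells a Nes UMI alone therefore marked endothelial-like or ependymal-like cells in most cases.

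**Figure D3:**
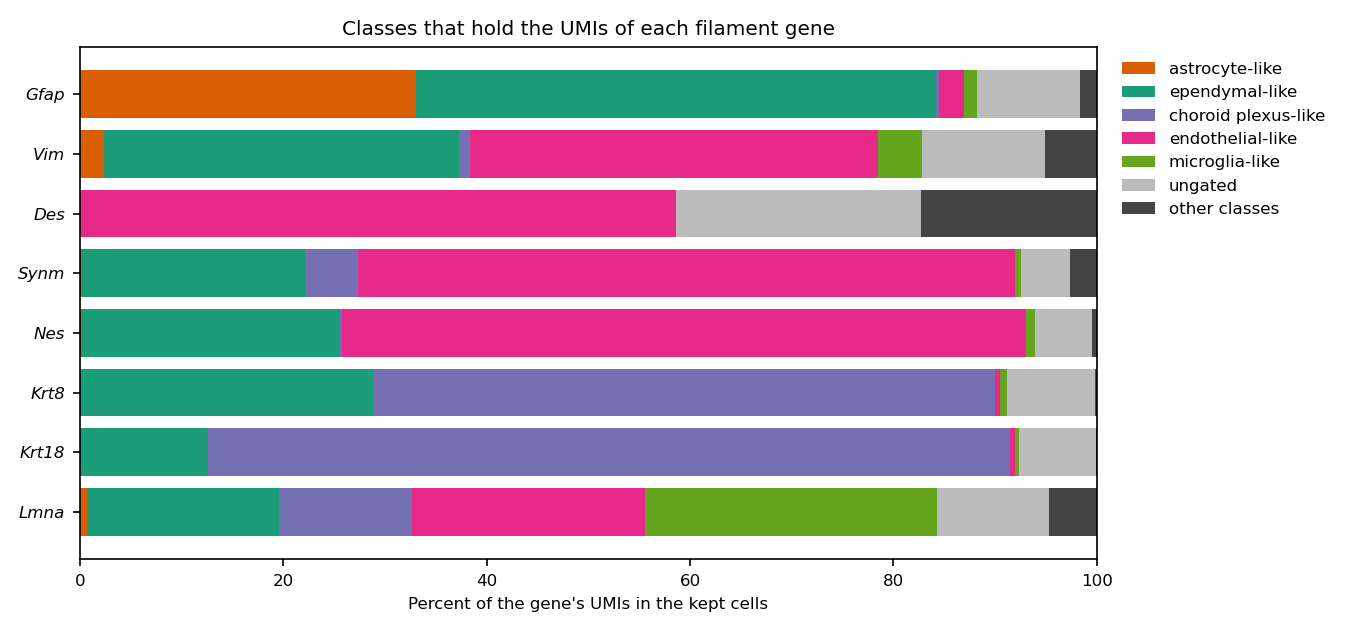
Share of the UMIs of each filament gene (bars, percent of that gene's UMIs in the 6485 kept cells) held by each class. Ependymal-like cells hold 51.1% of Gfap, endothelial-like cells 67.2% of Nes and 64.6% of Synm, and choroid plexus-like cells 78.9% of Krt18.

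Krt8 and Krt18 encode the type II and type I keratins that pair in simple epithelia. Both were genes of the 2 ventricular epithelia. Krt18 was at 385 CPM (370.5 to 400.2) in choroid plexus-like cells, the makers of cerebrospinal fluid, and at 102 CPM (92.8 to 113) in ependymal-like cells, a ratio of 3.76 (3.39 to 4.18). Krt8 was closer between them, with 88.5 CPM (81.5 to 95.9) and 69.4 CPM (61.6 to 78.0), a ratio of 1.28 (1.11 to 1.47). Krt8 thus made up 40.4% (36.7 to 44.1) of the UMIs of the keratin pair in ependymal-like cells and 18.7% (17.3 to 20.1) in choroid plexus-like cells. The pair share is of UMIs and not a ratio of protein chains. Other classes had little of either gene. Endothelial-like cells had 2.20 CPM of Krt18 and 0.73 CPM of Krt8, and microglia-like cells 0.78 and 0.42 CPM. Astrocyte-like cells had 0 UMIs of both, so the ependymal-like level was at least 19.4-fold higher for Krt18 and at least 13.2-fold higher for Krt8, with 0 set to 3 counts over the class.

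A Krt18 UMI was found in 93.3% of choroid plexus-like cells (91.0 to 95.2) and in 0.49% of microglia-like cells, at median depths of 10883.5 and 6503 UMIs. At 2000 UMIs per cell the shares were 49.9% in choroid plexus-like, 16.0% in ependymal-like and 0.21% in microglia-like cells. In thinned ependymal-like cells, Krt18 was found in 26.8% of Krt8-positive and 14.5% of Krt8-negative cells, and 3.34% (2.02 to 5.17) had both against a product of 1.996%. In choroid plexus-like cells the corresponding shares were 57.0% and 48.5%, and 9.64% (7.39 to 12.3) had both against 8.45%.

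Krt8 and Krt18 are neighbours on chromosome 15 with 0 protein-coding genes between them and lie on opposite strands. Their 250 bases before the gene start, from the same RefSeq table, are shown because the 2 genes had the most similar pattern over classes of any pair of the 8. Krt8 is on the minus strand at chr15:102004343-102004592 and Krt18 on the plus strand at chr15:102027966-102028215. Capitals would mark the 4 motifs searched above.
Krt8: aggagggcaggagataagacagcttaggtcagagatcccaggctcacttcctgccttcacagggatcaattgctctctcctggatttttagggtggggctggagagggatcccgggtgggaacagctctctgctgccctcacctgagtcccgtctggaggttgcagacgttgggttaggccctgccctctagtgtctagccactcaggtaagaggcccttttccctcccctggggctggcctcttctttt
Krt18: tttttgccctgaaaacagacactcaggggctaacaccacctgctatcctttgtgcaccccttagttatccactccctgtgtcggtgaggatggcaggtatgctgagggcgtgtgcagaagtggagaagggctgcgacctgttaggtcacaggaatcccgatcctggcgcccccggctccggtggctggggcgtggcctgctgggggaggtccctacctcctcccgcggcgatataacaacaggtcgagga
Neither window holds a match to any of the 4 motifs, which says only that these letters are not in these windows. The share of all windows that hold GGGCGG is 32.7% and that of TGANTCA 6.75%. Over the 10 classes of at least 20 cells, log2(CPM + 1) of Krt8 and Krt18 had a Pearson correlation of 0.89, and the next pair was Synm and Lmna with 0.77. These 10 points share 1 library and differ in depth, so the values are a description.

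Lmna encodes lamins A and C, which stiffen the nucleus and are made in most differentiated cells. It had the flattest pattern of the 7 genes with more than 29 UMIs. Its highest level among classes of at least 20 cells was 2.62 times the median over those classes, against 6.11 times for Vim and 456 times for Krt18. Mural-like cells had the highest Lmna level of all, 554 CPM (338 to 855) from 20 UMIs in 7 of 8 cells. Fibroblast-like cells had 161 CPM, ependymal-like cells 151 CPM (139.6 to 164), B cell-like cells 128 CPM, endothelial-like cells 111 CPM (103 to 119) and neuron-like cells 102 CPM. Choroid plexus-like cells had 63.2 CPM, oligodendrocyte-like cells 59.4 CPM, microglia-like cells 56.2 CPM (52.7 to 60.0), monocyte-like cells 46.2 CPM, border macrophage-like cells 39.2 CPM, astrocyte-like cells 38.7 CPM (24.2 to 58.5) and T or NK cell-like cells 17.7 CPM.

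Below the mural-like class, no 2 neighbours in the order of Lmna levels differed beyond their counting intervals. Classes farther apart did. The endothelial-like level was 1.97 times the microglia-like level (1.78 to 2.17), and the ependymal-like level was 3.91 times the astrocyte-like level (2.56 to 6.29). The mural-like level was 5.01 times the endothelial-like level (3.04 to 7.79).

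Counting members against the rest of the genome shows which pairs of classes the filament genes separate. A gene counted as higher or lower in a pair if its ratio was at least 2, with at least 20 CPM in a class and 10 UMIs in both together. Between astrocyte-like and ependymal-like cells, 1 of 7 members, Gfap, was higher in astrocyte-like cells, where 17.3% of 9246 genes were. The other 6, Vim, Nes, Synm, Krt8, Krt18 and Lmna, were lower, where 22.4% of genes were. The median log2 ratio of all genes was -0.02, and that of the 7 members was negative. The size of the members' median depends on how the 0 UMIs of Krt8 and Krt18 in astrocyte-like cells are set, so it is not given. So of these filament genes only Gfap was higher in the astrocyte-like class.

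Ependymal-like and endothelial-like cells shared Vim, Nes, Synm and Lmna within that fold. Gfap, Krt8 and Krt18, 3 of 7 members, were higher in ependymal-like cells (29.5% of 9262 genes), and 0 of 7 were lower (18.6%). Between astrocyte-like and endothelial-like cells, 1 of 5 members was higher (27.2% of 8934 genes) and 3, Nes, Synm and Lmna, were lower (21.1%). Between choroid plexus-like and ependymal-like cells, only Krt18 of 7 members was higher (10.9% of 8549 genes) and 5 were lower, Gfap, Vim, Nes, Synm and Lmna (52.8%). Here the background is high, since the median log2 ratio of all genes was -1.12 and that of the members -2.80.

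In the comparison of mural-like with endothelial-like cells, Des and Lmna of 5 members were higher (27.3% of 8490 genes) and Synm was lower (29.3%), with only 8 mural-like cells behind it. Endothelial-like cells were higher than microglia-like cells in 3 of 4 members, Vim, Nes and Synm (25.3% of 7800 genes), and lower in 0 (17.5%). Over all classes of at least 20 cells, 6 of the 8 members had a highest level at least 4 times the median, all but Des and Lmna. The same held for 49.4% of 12304 genes, so such a contrast between classes is common in this library.

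Filament genes were combined differently in single cells of the classes. At 2000 UMIs per cell, at least 3 of the 8 genes were found in 39.4% of ependymal-like and 23.1% of endothelial-like cells, against 3.00% of astrocyte-like and 2.88% of choroid plexus-like cells. Of the thinned microglia-like cells, 84.7% had none of the 8. In endothelial-like cells Nes and Lmna were found together in 7.62% of cells (6.27 to 9.15), against a product of 5.70%, and Lmna was in 25.4% of Nes-positive and 16.3% of Nes-negative cells. In ependymal-like cells Gfap and Nes were found together in 5.45% (3.73 to 7.64), against a product of 5.97%.

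Along the vessel, members of the endothelial set moved in opposite directions. Endothelial-like cells were split by arterial, capillary and venous genes, with at least 2 markers of a state and more than of the others. This gave 115 arterial, 1300 capillary and 21 venous cells, at median depths of 3639, 3598 and 4141 UMIs. Nes was at 268 CPM (223 to 320.4) in arterial, 179.6 CPM (169 to 191) in capillary and 49.0 CPM (15.9 to 114) in venous cells. The arterial level of Nes was 1.49 times the capillary level (1.23 to 1.80), and the capillary level was 3.66 times the venous level (1.57 to 11.3), which rests on 5 UMIs. Synm ran the other way between arterial and capillary cells, with 284 CPM (237 to 337) and 441 CPM (424 to 459), a ratio of 0.64 (0.53 to 0.77). Venous cells had 225 CPM of Synm (143 to 338), and the interval of the arterial over venous ratio, 0.80 to 2.06, holds 1.

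Vim and Lmna were higher in arterial than in capillary cells. Vim was at 1564 and 1055 CPM, a ratio of 1.48 (1.37 to 1.60), and Lmna at 147 and 103 CPM, a ratio of 1.43 (1.10 to 1.85). Of the 17 Des UMIs in endothelial-like cells, 7 were in arterial and 6 in capillary cells, a ratio of 14.7 (4.22 to 52.9). Marker lists of other cell types moved with this split. The 8 mural markers, all seen in arterial and capillary cells and led there by Rgs5, summed to 715 CPM in arterial, 120.1 CPM in capillary and 294 CPM in venous cells, and to 26938 CPM in mural-like cells. The 8 neuron markers summed to 541, 71.7 and 49.0 CPM in the same order, and 244 of their 246 arterial UMIs were of Stmn2, while Snap25, Syt1 and Tubb3 had 0 there. The 8 fibroblast markers, 5 of them seen in arterial and 7 in capillary cells, summed to 165, 26.2 and 0 CPM. Their part in the arterial Des, Vim and Lmna levels was not tested.

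**Figure D4:**
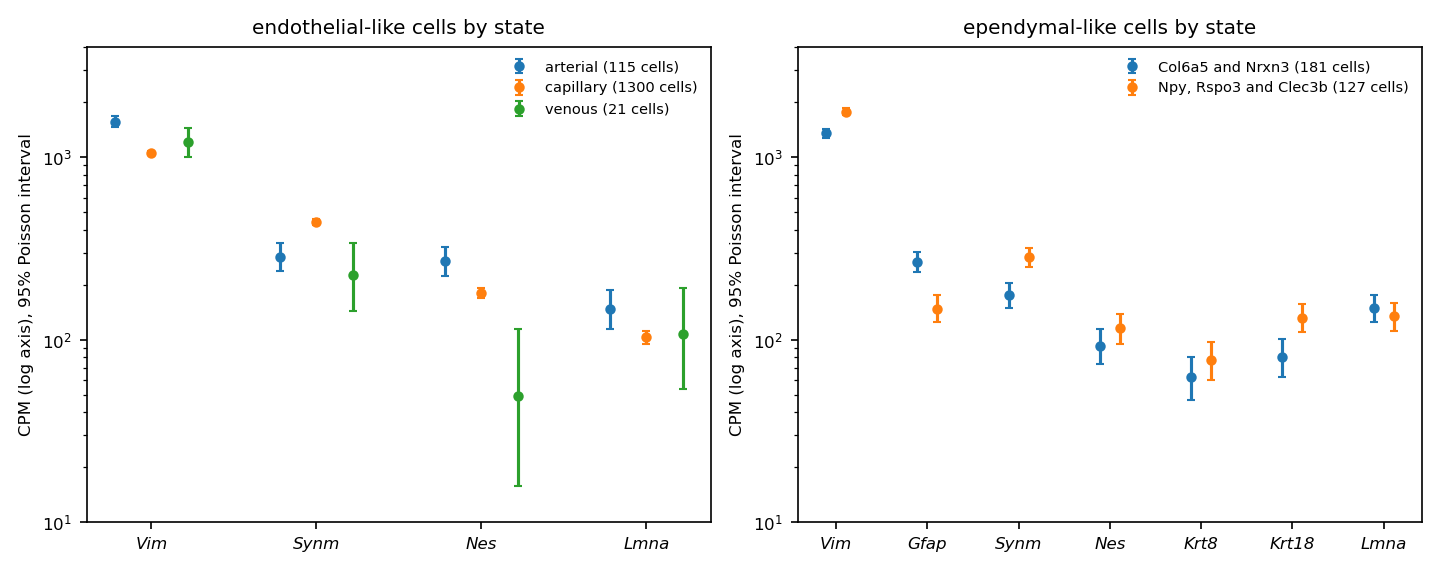
Levels (log CPM axis, 95% Poisson intervals) of filament genes in states of endothelial-like cells (left) and ependymal-like cells (right). Nes is lowest in the 21 venous cells at 49.0 CPM and Synm highest in capillary cells at 441 CPM, while Gfap is higher in Col6a5 and Nrxn3 cells at 267 CPM than in Npy, Rspo3 and Clec3b cells at 148 CPM.

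From the 610 ependymal-like cells 2 kinds were picked out by marker genes, which differed in Gfap, Synm, Krt18 and Vim. Cells with Col6a5 or Nrxn3 and without Npy, Rspo3 and Clec3b numbered 181, and cells with the reverse pattern 127. Gfap was at 267 CPM (234 to 303) in the former and 148 CPM (125 to 175) in the latter, a ratio for the latter of 0.55 (0.45 to 0.69). Synm was at 176 CPM and 283 CPM, a ratio of 1.61 (1.32 to 1.98), Krt18 at 80.1 and 132 CPM, a ratio of 1.65 (1.23 to 2.24), and Vim at 1345 and 1772 CPM, a ratio of 1.32 (1.22 to 1.42). The intervals of the ratios of Nes, Krt8 and Lmna hold 1. Between these 2 kinds, Gfap was therefore lower where Synm, Krt18 and Vim were higher. Cells of neither kind, a large part of the class, were left out of this comparison. The class as a whole did not follow that order. Its levels were 283 CPM for Gfap, 239 for Synm, 102 for Krt18 and 1616 for Vim, each above the Col6a5 and Nrxn3 kind. The 8 astrocyte markers moved with Gfap, at 1696 and 1328 CPM, with 7 of them seen in each kind. So did the mural markers, at 446 and 221 CPM, of which Acta2 made up 351 of 401 and 185 of 209 UMIs, while Kcnj8, Abcc9, Higd1b and Myh11 had 0. The median depths were 4594 and 6644 UMIs. The part of these markers and of depth in the differences was not tested.

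Among microglia-like cells Vim and Lmna varied over the states given here, which leave out many of the 2437 cells. Over the whole class Vim was at 49.8 CPM and Lmna at 56.2 CPM. Cells with at least 3 of 6 lipid and phagocytic genes, such as Spp1 and Gpnmb, and of no other state numbered 15, and had Vim at 396 CPM (288 to 532). Of their 44 Vim UMIs, 35 lay in 1 cell, and 7 of the 15 cells had any. Vim was at 54.5 CPM (37.5 to 76.5) in 105 interferon cells, 30.5 CPM (26.0 to 35.5) in 942 cytokine cells and 18.3 CPM (9.98 to 30.6) in 191 cells of no state. In the cytokine cells too, 43 of the 166 Vim UMIs lay in 1 cell. Lmna was at 90.1, 54.5, 54.5 and 28.7 CPM in the same order, and the cytokine level was 1.90 times that of cells of no state (1.23 to 3.08). Cells of no state were the shallowest, with a median of 4044 UMIs. The 8 border macrophage markers summed to 306, 97.4, 22.04 and 78.3 CPM in the same order of states, so they were lowest in cytokine cells, and Ms4a7 led them in each state. The 8 monocyte markers summed to 81.1, 246, 67.9 and 57.4 CPM, led in each state by Ms4a4c. Their part in the Vim levels was not tested.

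The study set out to compare cells that took up the vector with cells that did not in the same sample. EGFP was found in only 2 astrocyte-like cells, so no comparison within them can be made. Ependymal-like cells held 47 of the 69 cells with an EGFP UMI, and these were compared with the 563 without one. Gfap was at 388 CPM (328 to 457) in EGFP-positive and 272 CPM (256 to 289.8) in EGFP-negative cells, a ratio of 1.43 (1.19 to 1.70). Vim was lower, at 1326 and 1646 CPM, a ratio of 0.81 (0.73 to 0.88), and Synm was lower, at 174 and 246 CPM, a ratio of 0.71 (0.54 to 0.91). Lmna was higher, at 209 and 146 CPM, a ratio of 1.44 (1.12 to 1.82). The intervals for Nes, at 107 and 120.2 CPM, for Krt8 and for Krt18 hold 1. Of 7 members, 0 passed a 2-fold difference in either direction, against 3.81% of 8670 genes in each direction. Hopx, the target of the vector, was at 67.0 and 148 CPM, a ratio of 0.45 (0.29 to 0.68).

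The EGFP-positive cells resembled the Col6a5 and Nrxn3 kind in the direction of Gfap, Synm and Vim, and Hopx too was lower in that kind, at 87.9 against 204 CPM. The marker lists did not follow the same direction. Astrocyte markers were at 1556 CPM in EGFP-positive and 1695 CPM in EGFP-negative cells and mural markers at 246 and 403 CPM, both lower in EGFP-positive cells but higher in the Col6a5 and Nrxn3 kind. Choroid plexus markers were at 249 and 389 CPM, and monocyte markers at 53.6 and 20.4 CPM, where 18 of the 20 UMIs in EGFP-positive cells were of Saa3. The part of the kinds and of these markers in the EGFP difference was not tested. EGFP-positive and EGFP-negative cells had medians of 6452 and 5904 UMIs. A missing EGFP UMI does not show that a cell lacked the vector.

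**Figure D5:**
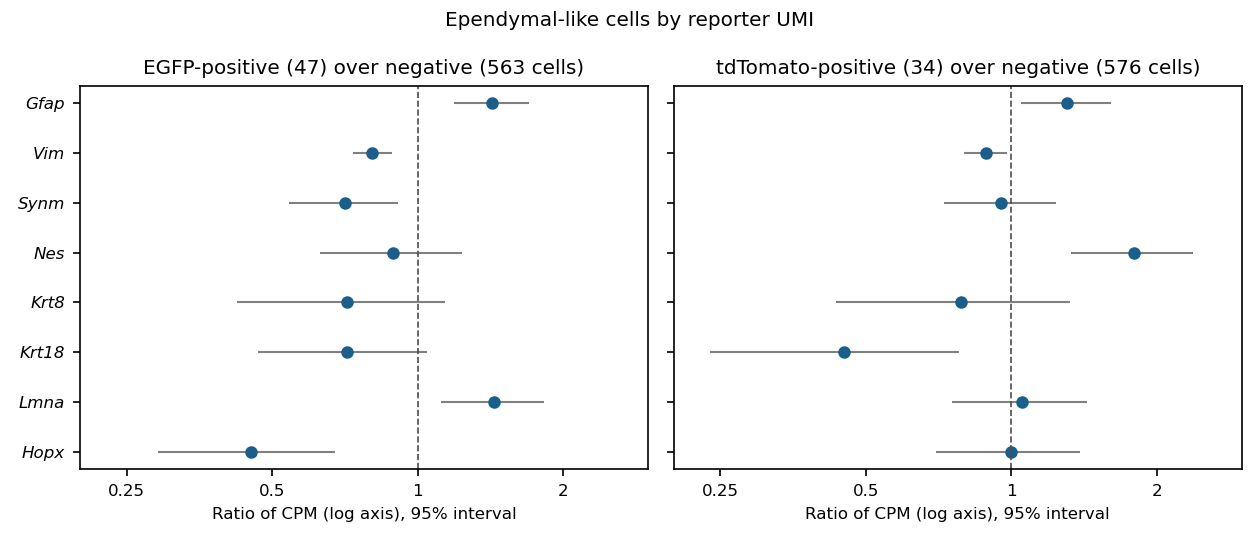
Ratio of CPM (log axis) with 95% intervals for 7 filament genes and Hopx in ependymal-like cells with a reporter UMI over cells without one, for EGFP (left) and tdTomato (right). Gfap lies above 1 in both panels at 1.43 and 1.30, and Hopx lies at 0.45 for EGFP and at 1.00 for tdTomato.

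The lineage reporter tdTomato allowed the same split in 4 classes. In astrocyte-like cells, 28 had a tdTomato UMI, and Gfap was at 1682 CPM in these against 1166 CPM in the 112 others, a ratio of 1.44 (1.24 to 1.68). The positive cells were deeper, with a median of 5958.5 against 2667 UMIs, and among cells of at least 4000 UMIs the ratio was 1.22. Vim was at 675 and 833 CPM, and the interval of its ratio, 0.65 to 1.006, holds 1. In ependymal-like cells, 34 had a tdTomato UMI. Nes was higher in them, at 203 against 113 CPM, a ratio of 1.79 (1.33 to 2.38), and Gfap at 362 against 277 CPM, a ratio of 1.30 (1.05 to 1.60). After thinning these ratios were 1.46 for Nes, from 10 UMIs in the positive cells, and 1.15 for Gfap. Without the cell with the most UMIs of the gene in each group they were 1.67 and 1.18. Among cells of at least 4000 UMIs they were 1.86 and 1.26. Krt18 was lower, at 48.0 against 106 CPM, but the 13 UMIs of the positive cells fell to 5 after thinning, where the log2 ratio went from -1.15 to -0.34. In choroid plexus-like cells, 79 had a tdTomato UMI. Synm was lower in them, at 17.9 against 36.4 CPM, a ratio of 0.49 (0.26 to 0.84), and Krt18 was at 412 and 382 CPM, a ratio of 1.08 whose interval, 0.96 to 1.21, holds 1. In endothelial-like cells, 38 had a tdTomato UMI. Vim was at 1247 and 1108 CPM in positive and negative cells, a ratio of 1.13 (0.99 to 1.27), Nes at 156 and 190.0 CPM, a ratio of 0.82 (0.57 to 1.15), and Synm at 445 and 420.0 CPM, a ratio of 1.06 (0.86 to 1.30). These intervals and that of Lmna hold 1.

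Ungated cells with markers of 2 classes varied in their filament genes. The 37 cells that shared astrocyte and ependymal markers had Gfap at 559 CPM (449 to 688), Vim at 1640 CPM (1447 to 1852), Nes at 101 CPM (57.5 to 163) and Synm at 163 CPM (107 to 239). Their Gfap lay between the levels of the 2 classes, and their Nes and Synm, at or below the ependymal-like levels, were above the astrocyte-like levels. The 13 cells that shared astrocyte and microglia markers had 0 Gfap UMIs, which allows up to 57.9 CPM, and the 12 that shared choroid plexus and ependymal markers had 0 Nes UMIs, which allows up to 23.0 CPM. The doublet caller marked 21.3% of ungated and 1.98% of gated cells.

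Other genes of the filament system were given by 4 lists. Of 21 other cytoplasmic filament genes, 8 reached 20 CPM in a class of at least 20 cells and 5 of these were at least 4 times the median over classes there, against the 49.4% of all genes given above. Ina, the neuronal filament protein internexin, was at 255 CPM (177 to 354) in neuron-like cells. Krt15, a type I keratin, was at 283 CPM (267 to 299.3) in ependymal-like cells. Bfsp2, a lens filament protein, was at 151 CPM (123 to 183) in oligodendrocyte-like cells. Nefl and Krt222 passed with 3 UMIs each in neuron-like cells.

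Of 15 B-type lamins and lamin partners, 14 reached 20 CPM and 3 (21.4%) passed the contrast, a lower share than in the other lists. Over all genes the share was 49.4%. Lmnb1, a B-type lamin, was at 106 CPM (54.8 to 185) in T or NK cell-like cells. That class was last in the order of Lmna, but its 17.7 CPM (2.14 to 63.9) rests on 2 UMIs. The interval of its Lmna ratio to the class above holds 1. Syne1 and Syne2, which tie the nucleus to the cytoskeleton, were at 2866 CPM in ependymal-like and 217 CPM in endothelial-like cells. Of 12 linkers and junction plaque genes, 11 reached 20 CPM and 9 (81.8%) passed, above the 49.4% of all genes. The ependymal-like class was highest for Eppk1, a plectin relative that binds keratins (67.7 CPM), for Itgb4, an integrin of keratin anchors (86.3 CPM), and for the plaque gene Pkp2 (25.7 CPM). Itgb4 was not particular to that class, since oligodendrocyte-like cells had 73.9 CPM from 51 UMIs. The next class for Eppk1 was endothelial-like cells at 0.88 CPM. Desmoplakin, Dsp, which fixes keratins to desmosomes, was highest in choroid plexus-like cells at 50.1 CPM (44.9 to 55.7). Dtna, dystrobrevin alpha, was highest in astrocyte-like cells at 1302 CPM.

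Of 12 chaperones, kinases and turnover genes, 11 reached 20 CPM and 5 (45.5%) passed, close to the 49.4% of all genes. Cryab, the small heat shock protein that binds Gfap and desmin filaments, was at 4159 CPM in oligodendrocyte-like cells. Hspb1, a related chaperone, was at 3896 CPM in endothelial-like and 281 CPM in ependymal-like cells. Hspb8 and Padi2, the latter an enzyme that modifies Gfap and vimentin, were both at 100.2 CPM (75.9 to 129.8) in astrocyte-like cells. Neither was particular to that class. Hspb8 was also at 89.3 CPM in endothelial-like and 74.2 CPM in choroid plexus-like cells, and Padi2 at 78.3 CPM in oligodendrocyte-like cells. Pak1, a kinase that can phosphorylate vimentin and desmin, was at 471 CPM in oligodendrocyte-like cells.

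For each member the genes whose log2(CPM + 1) over the 10 classes was most alike were listed from 12209 genes, by Pearson correlation and as a description. Hdac4, a histone deacetylase, and the nuclear factor gene Tox2 were nearest to Gfap (0.95 both). Dennd4c (0.93) and Anxa2, a membrane-binding annexin (0.92), were nearest to Vim. 2900026A02Rik was nearest to Nes (0.94), and Amotl2 and Cavin2, genes of cell junctions and caveolae, to Synm (0.95 and 0.94). Plaat1 (0.97) and the centrin gene Cetn2 (0.96) were nearest to Krt8, and Sfrp5, a secreted Wnt antagonist, to Krt18 (0.98). Zfp954 and Nipal3 were nearest to Lmna (0.92 both). Des was at 0 in 9 of the 10 classes, so its likeness says nothing. With 10 CPM added in place of 1, the 3 nearest genes shared with the first ranking were 2 for Vim, 1 each for Gfap, Nes, Synm, Krt8 and Lmna, and 0 for Krt18.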

How the data were processed

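The authors made the deposited count matrix, UMI counts per gene and barcode, using Cell Ranger 8.0.1 and the build GRCm39; both names come from the submitters' processing notes (per the labels), which give no annotation version. Kit and sorting are described per the labels' protocols (10x 3′ chemistry). Barcodes had 500 to 42440 UMIs (median 5457). Those with under 500 genes or over 15% mitochondrial UMIs were removed, 187 of 6672. Doublets called by Scrublet (261, 4.02%) were kept, and removed in an alternative. Markers of each class are the "cell type markers" of the gate; 2 of 128, Fcrls and Iglc2, were not among the features. The neural progenitor gate held 0 cells.

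UMIs were summed per class. Levels have exact Poisson intervals, ratios exact binomial and shares Clopper-Pearson intervals, all at 95%. PCR duplicates are removed by the UMIs, and free RNA is not. A level from 0 UMIs is set to 3 counts. With 1 library no paired or other test across samples was possible and no p-value is given. The calculations were tested on simulated data. Genes named beyond the 8 are list genes with at least 20 CPM and 4 times the median over classes, at most 5 per list, and the 3 most alike per member; not all of these are printed. Members, lists and states were chosen with earlier results of these data known. Thinning used seed 0. Clusters for 1 alternative came from Leiden clustering. Tools were Python 3.11.15, numpy 2.4.6, scipy 1.17.1, pandas 2.3.3, scanpy 1.11.5 and matplotlib 3.10.9.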

Additional observations from a re-analysis of the deposited data

How the results depend on the processing

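The 11 planned log2 ratios of CPM were recomputed under alternatives for the gate, the cell filter, doublets, clusters in place of gates, weighing of cells and thinning. A further alternative left out the cell with the most UMIs of the gene. Gfap, Vim and Nes by EGFP were also recomputed in cells of at least 4000 UMIs, a check that was not planned. Of 101 values in all, 94 lay inside the counting interval of the main value. For Gfap in astrocyte-like over ependymal-like cells the value of 2.22 became 2.06 with cells weighed equally and 2.07 after thinning to 2000 UMIs. For Vim in ependymal-like over endothelial-like cells 0.54 became 0.48 without called doublets, 0.47 with cells weighed equally and 0.43 after thinning. For Nes in endothelial-like over ependymal-like cells 0.67 became 0.99 after thinning. For Synm in astrocyte-like over endothelial-like cells -6.32 became -4.63 with classes from clusters, where the 147 astrocyte cells held 10 Synm UMIs. The cause of these changes was not tested. The sign was kept in 10 of the 11 results. The exception was Nes by EGFP in ependymal-like cells, whose value of -0.17 became 0.03 after thinning, inside its interval. Des could not be recomputed from clusters, since none was named mural. Of 14 counts of genes past a 2-fold difference, which ran from 330 to 4510, 12 differed by over 1.5 times from those past 4-fold, which ran from 25 to 2691. Alternatives for the interferon and reporter splits were chosen after seeing the data. Of 54 values under these, 48 lay inside the counting interval and 6 outside it. The 54 include the values for Gfap, Vim and Nes by EGFP that were also counted among the 101. Lmna by EGFP went from 0.52 to 0.92 after thinning, and Krt18 by tdTomato in ependymal-like cells from -1.15 to -0.34. Gfap by interferon genes went from 0.71 to 0.22 in cells of at least 4000 UMIs and to 0.94 after thinning. By tdTomato in astrocyte-like cells, Gfap went from 0.53 to 0.28 and Vim from -0.30 to -0.76 in cells of at least 4000 UMIs. No paired analysis was possible because the series has 1 single-cell library. Depth limits what can be said of 0 UMIs in classes of under 30 cells.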
